A study of Mus musculus with 24 samples.

Results

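Conventional dendritic cells of type 1 (cDC1) that had gained the transcription factor gene Zeb2 were set against conventional dendritic cells of type 2 (cDC2) that had lost it, because the total Zeb2 counts of the 2 kinds of cell came close to each other. The comparison takes 8 of the 24 libraries of the series, assigned by their labels: 4 of cDC1 labelled TG CRE+ and 4 of cDC2 labelled KO CRE+. All came from spleens of untreated C57Bl/6 mice aged 6 to 12 weeks, and both subsets were sorted by flow cytometry. The cDC1 carried the genotype CD11cCRExR26-Zeb2Tg/Tg, in which Cre recombinase under CD11c sequences turns on Zeb2 from a transgene placed at Rosa26; they are called transgene cDC1 here. The cDC2 carried CD11cCRExZeb2fl/fl, in which the same driver removes the floxed part of the cells' own Zeb2; they are called deletion cDC2. Cre-negative littermates served as matched controls, with 2 libraries of cDC1 from the transgene line (R26-Zeb2Tg/Tg, control cDC1) and 2 of cDC2 from the deletion line (Zeb2fl/fl, control cDC2). No library of the pair is shared with these controls. The deletion and the transgene act only once a cell expresses the CD11c driver, which other CD11c-expressing cells of the mouse also do, and the 2 groups of the pair differ in subset, mouse line and direction of the Zeb2 change at once. Those 3 factors cannot be told apart within the pair.

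The cDC1 subset takes up dead cells and presents their antigens to CD8 T cells, and depends on the transcription factors IRF8 and BATF3. The cDC2 subset primes CD4 T cells and depends on IRF4 and, in the spleen, on Notch signalling. Zeb2 encodes a zinc-finger repressor that binds E-box sequences and is naturally high in cDC2 and low in cDC1, and per the series title the study followed it through Id2, an inhibitor of E proteins that cDC1 need. The question put to these libraries was which differences between the subsets remain where the Zeb2 count no longer separates them.

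Zeb2 (chr2:44983512-45117442, GRCm38.p6) stood at 44.3, 45.0, 46.3 and 41.4 CPM (gene counts scaled to library size with the trimmed mean of M-values) in the 4 transgene cDC1 libraries, a mean of 44.2 ± 2.07 CPM (SD, n = 4). It stood at 38.0, 41.4, 33.0 and 30.7 CPM in deletion cDC2, a mean of 35.8 ± 4.83 CPM (SD, n = 4). The control cDC1 held 3.26 and 2.36 CPM and the control cDC2 176 and 132 CPM. The pair's means were thus 1.23-fold apart, with 1 deletion library at the level of the lowest transgene library, while the control subsets did not come near each other. These values led to the choice of the groups to compare and were not tested. They are totals over the gene and do not separate transcripts that lack the floxed part from whole ones.

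**Figure D1:**
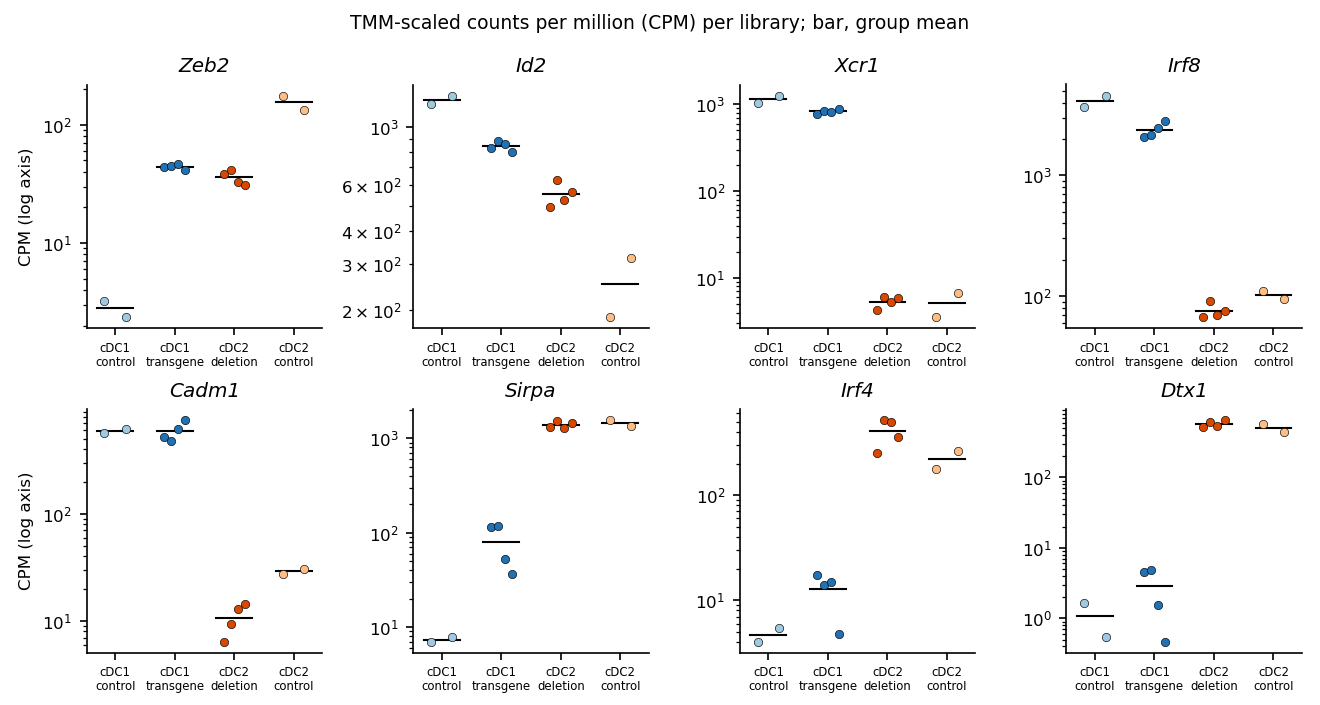
TMM-scaled CPM (log axes) of Zeb2, Id2 and 6 subset genes in control cDC1 (2 libraries), transgene cDC1 (4), deletion cDC2 (4) and control cDC2 (2), with bars at group means. Zeb2 lies between 30.7 and 46.3 CPM in all 8 libraries of the pair, while Xcr1, Irf8, Cadm1, Sirpa, Irf4 and Dtx1 separate the subsets there without overlap.

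The sorted cells kept the markers of their labels. All 19 tested genes of a cDC1 identity list were higher in transgene cDC1, and 18 of 20 genes of a cDC2 identity list were higher in deletion cDC2. Over all 13166 genes tested, 32.0% were higher in deletion cDC2 (4214 genes) and 29.4% in transgene cDC1 (3877 genes) by edgeR's quasi-likelihood test at a Benjamini-Hochberg adjusted p of 0.05, together 61.5%. At least 2-fold differences made up 2172 and 1378 of them. The 4 libraries of each group did not overlap for 7163 genes (54.4%). The libraries of the pair held 24365724 to 36094786 counts over genes and 13603 to 14260 detected genes, and those of the whole series 21972763 to 36094786 counts. Whether replicates are separate mice is not stated in the labels, so p-values reflect only how much these libraries varied, which may be technical. In sorted bulk cells, fewer cells of a type and less RNA per cell cannot be told apart.

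The same test between the matched controls called 42.4% of the genes, with 2847 (21.6%) higher in control cDC2 and 2729 (20.7%) higher in control cDC1. Of these 5576 control subset differences, 4713 (84.5%) were also called in the pair with the same direction, 124 (2.22%) were called with the other direction, and 739 (13.3%) did not pass in the pair. A further 3254 genes passed only in the pair, and 4336 passed in neither. The change of the subset difference, described below, was called for 509 of these 3254 genes and for 206 of the 739. The pair holds 4 libraries a group and the controls 2. A gene that passed in the pair alone, or in the controls alone, need not differ between the comparisons. The median log2 difference over all genes tested was 0.06 in the pair and 0.04 in the controls. Across the 13166 genes, which are not independent, the log2 differences of the pair and of the controls had a Pearson r of 0.74 and a Spearman rho of 0.72. For scale, the remaining Cre-negative libraries (cDC2 of the transgene line against cDC1 of the deletion line), which again share no library with the matched controls, gave 0.77 and 0.76.

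**Figure D2:**
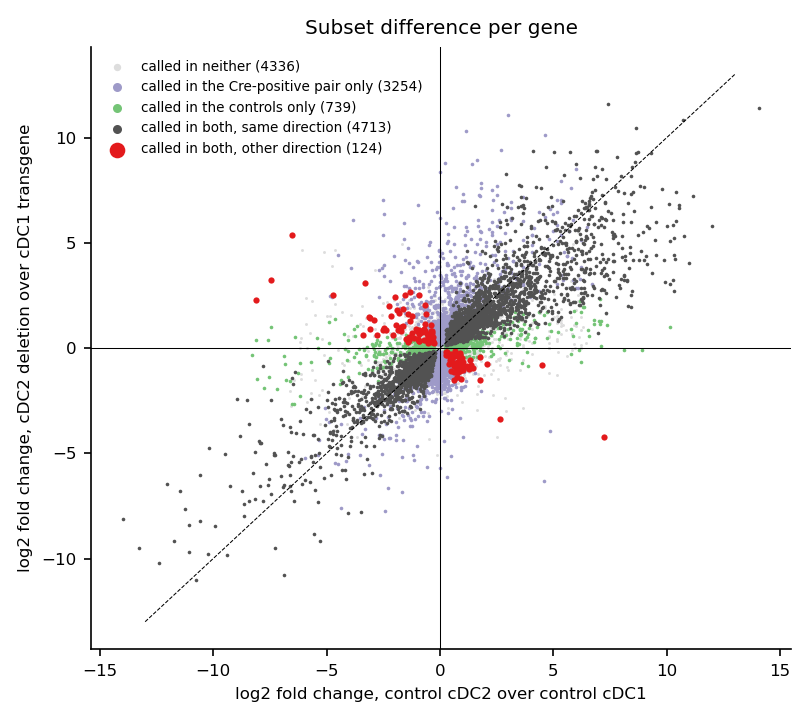
Log2 fold change of cDC2 over cDC1 per gene, in the matched controls (x axis) and in the pair (y axis), with the line of equal values dashed and genes coloured by where they were called. Most of the 4713 genes called in both lie near the dashed line or below it on the cDC2 side, and the 124 called in opposite directions lie in the upper left and lower right.

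Subset differences were smaller in the pair than in the controls for many genes. Among the 1695 genes called at least 2-fold higher in control cDC2, the pair's log2 difference was a median of 0.77 of the controls' difference, and among the 1114 genes at least 2-fold higher in control cDC1 a median of 0.78. The remaining Cre-negative libraries gave 0.86 and 0.90 for the same genes. These genes were picked by their difference in the matched controls, so a smaller difference elsewhere can come from that choice alone. The remaining Cre-negative libraries are also no like measure. They have 2 libraries a group and the lines swapped, while the pair has 4 and shares the line difference of its controls. Of the cDC2-high genes, 79.0% were still at least 2-fold apart in the pair, against 78.6% in the remaining Cre-negative libraries, and of the cDC1-high genes 67.2% against 77.5%. The change of the subset difference (pair minus controls) was tested as a contrast of the same model and was called for 10.2% of genes, 583 moving towards cDC2 (4.43%) and 758 towards cDC1 (5.76%). Without control cDC2 replicate 1 the first count was 369, and without control cDC1 replicate 2 the second was 485. Of the 2415 genes kept as higher in cDC2, 210 had a significantly smaller and 71 a significantly larger difference in the pair. Of the 2298 kept as higher in cDC1, 129 had a smaller and 89 a larger one. The change equals the deletion's effect in cDC2 minus the transgene's effect in cDC1, so values of both are given below where they bear on a gene.

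Between Cre-negative libraries of the lines, 51 of the 13166 genes (0.387%) were called in cDC1 (17 genes, 0.129%), in cDC2 (18, 0.137%) or over both subsets together (47, 0.357%). These are named as line-marked below, and 39 of them were among the genes kept and 4 among the genes with opposite signs. Of all genes tested, 35.8% were kept and 0.942% had opposite signs. A difference between the lines enters the pair and its matched controls alike, which favours calls of the same sign in both. DESeq2 called 145. Without Cre-negative cDC1 replicate 2 of the deletion line the number was 26, so the marking leaves out genes that 2 libraries a group could not show. No gene was called for a line difference that itself differed between the subsets, by edgeR's quasi-likelihood test, though 1155 had an unadjusted p under 0.05. On chromosome 6, which carries Rosa26, lay 19 of the 51 (37.3%, against 5.18% of tested genes with a position), and 9 lay on chromosome 2, which carries Zeb2 (17.6% against 7.83%). Gt(ROSA)26Sor (chr6:113067428-113077244), the transcript at the Rosa26 locus, was at 0.0360, 0.0847, 0.504 and 0.116 CPM in transgene cDC1 and at 10.0, 7.48, 9.40 and 9.56 CPM in deletion cDC2. Control cDC1 held 0.0402 and 0.394 CPM and control cDC2 5.90 and 8.23 CPM, so the gap followed the line whatever the Cre. Hebp1 (chr6:135137519-135168215), Fastkd1, Klrd1, Jchain and Scn3a were the other line-marked genes with the largest gaps between the lines among those averaging 2 or more in log2 CPM. Klrd1, a natural killer receptor subunit also found on dendritic cells, was at 1.01, 1.36, 3.76 and 0.753 CPM in transgene cDC1 and at 229, 158, 215 and 220 CPM in deletion cDC2. The control subsets of the same lines differed 155-fold in it, and the lines 5.36-fold.

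Among the cDC1 genes, Xcr1, Irf8, Naaa, Ppt1 and Batf3 differed in the pair with no called change of the difference. Xcr1 (chr9:123852315-123862029), the receptor through which cDC1 sense the chemokine XCL1, was at 778, 835, 805 and 889 CPM in transgene cDC1 and at 4.26, 6.02, 5.26 and 5.88 CPM in deletion cDC2. Every transgene library lay far above every deletion library, and the control cDC1 held 1022 and 1259 CPM against 3.55 and 6.73 CPM in control cDC2. The log2 difference of cDC2 over cDC1 was -7.27 ± 0.17 (SE; 154-fold, adjusted p = 2.9e-19 by edgeR's quasi-likelihood test) in the pair and -7.80 in the controls. Irf8, the factor that sets the cDC1 fate, was at 2064, 2157, 2450 and 2829 CPM in transgene cDC1, at 67.0, 91.7, 69.2 and 75.5 CPM in deletion cDC2, and at 3682 and 4574 CPM in control cDC1. Its log2 difference was -4.97 ± 0.17 (SE; 31.3-fold, adjusted p = 3.6e-16) against -5.32 in the controls. Naaa, a lysosomal amidase, and Ppt1, a lysosomal thioesterase, differed 34.7-fold and 24.9-fold in the pair, with log2 differences of -5.12 and -4.64 against -5.68 and -4.89 in the controls. Batf3, the partner of IRF8 in cDC1, differed little between subsets, by -0.44 on the log2 scale in the pair (adjusted p = 0.0025) and -0.99 in the controls. When the line difference of the Cre-negative libraries was subtracted, its log2 difference was -0.36 and did not pass (adjusted p = 0.084, range over the alternatives tried 0.00079 to 0.084).

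In 3 cDC1 genes the subset difference was larger in the pair than in the controls. Clec9a, a receptor for actin exposed by dead cells, was at 186, 173, 208 and 246 CPM in transgene cDC1 and at 2.95, 1.27, 3.21 and 3.33 CPM in deletion cDC2, while control cDC2 still held 17.6 and 11.9 CPM. The change was -2.10 ± 0.33 (log2, SE; adjusted p = 0.00016), and the part of it within cDC2 was a fall of 2.45 with the deletion (adjusted p = 1.2e-06). Cadm1, a cell adhesion molecule of cDC1, changed by -1.43 ± 0.30 (log2, SE; adjusted p = 0.0024), from 27.6 and 30.8 CPM in control cDC2 to 6.40, 9.34, 13.1 and 14.3 CPM in deletion cDC2. Cd36, a scavenger receptor and line-marked, changed by -1.92 ± 0.26 (log2, SE; adjusted p = 2.7e-05) and was at 4.85, 3.29, 5.65 and 5.65 CPM in deletion cDC2. For all 3 the residual level in cDC2 was lower in each deletion library than in either control.

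In 7 other cDC1 genes the difference had become smaller, with the remaining 9 of the 19 not passing the test of the change. For 4 of the 7 (Btla, Itgae, Tlr11 and Wdfy4) the change did not pass when 1 or other control library was left out. Tlr3, the receptor for double-stranded RNA, was at 129, 132, 203 and 184 CPM in transgene cDC1 against 363 and 380 CPM in control cDC1, and its log2 difference went from -6.04 in the controls to -4.06 in the pair (change 1.98 ± 0.29, SE; adjusted p = 6.4e-05). Snx22, a sorting nexin, was at 13.6, 12.4, 15.1 and 10.2 CPM in deletion cDC2 against 2.54 and 2.96 CPM in control cDC2, so here the cDC2 side had moved (deletion effect 2.22, adjusted p = 1.5e-07), and its change was 2.61 ± 0.24 (log2, SE; adjusted p = 1.7e-07). Hepacam2 had moved on both sides, with a change of 3.03 ± 0.39 (log2, SE; adjusted p = 1.4e-05). The list's median log2 difference was -5.12 in the pair and -5.39 in the controls, against 0.06 and 0.04 over all genes tested. With the transgene, 11 of the 19 were lower than in control cDC1 and none higher (7.0% of all genes were called there), and with the deletion 3 were higher and 3 lower than in control cDC2 (5.21% of all genes). These comparisons share their libraries with the change.

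Of the 20 cDC2 identity genes, 12 had changed towards cDC1 and none towards cDC2, against 5.76% and 4.43% of all genes tested. The list's median log2 difference was 3.26 in the pair against 5.57 in the controls. The changes of Ccr2, Cd209a, Cx3cr1 and Itgam did not pass without 1 or other of control cDC1 replicate 2 and control cDC2 replicate 1. With the transgene, 12 of the 20 were higher than in control cDC1 and none lower. With the deletion, 4 were lower than in control cDC2 and none higher. Mean log2 CPM of the 20 genes in transgene cDC1 replicates 1 to 4 was 4.35, 4.30, 3.88 and 3.04. The cDC1 identity list ran the other way, at 8.13, 8.16, 8.38 and 8.52. The cause of this order of replicates was not tested. Sirpa (chr2:129591042-129632228), the receptor for CD47 by which cDC2 are often sorted, was at 115, 117, 53.1 and 36.2 CPM in transgene cDC1 and at 1321, 1539, 1281 and 1442 CPM in deletion cDC2. Control cDC1 held only 6.99 and 7.78 CPM, and control cDC2 1546 and 1340 CPM. All 4 transgene libraries had left the control cDC1 level and remained far below cDC2, with replicates 1 and 2 above 3 and 4. The log2 difference was 4.12 ± 0.33 (SE; 17.4-fold, adjusted p = 3.8e-10) in the pair and 7.61 in the controls (change -3.49, adjusted p = 0.00018).

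Csf1r, the receptor of macrophage colony-stimulating factor, had moved on both sides. It was at 89.3, 75.8, 66.9 and 79.9 CPM in transgene cDC1 (controls 18.7 and 24.2) and at 418, 528, 450 and 464 CPM in deletion cDC2 (controls 981 and 751). The subsets still did not overlap, with a log2 difference of 2.58 ± 0.13 (SE; 5.96-fold, adjusted p = 2.7e-13) against 5.34 in the controls and a change of -2.76 (adjusted p = 3e-08). Cd4, the coreceptor found on many splenic cDC2, was at 87.6, 68.3, 57.4 and 52.4 CPM in transgene cDC1 and 271, 238, 242 and 272 CPM in deletion cDC2, with 8.36 and 11.6 CPM in control cDC1. Its change was -2.95 (adjusted p = 4e-07), and the fractalkine receptor gene Cx3cr1 narrowed from 5.98 in the controls to 4.06 in the pair (log2, change adjusted p = 0.014) through its fall in deletion cDC2.

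For other cDC2 genes the difference was large in the pair and no change of it was called. Irf4, the factor on which cDC2 migration depends, was at 17.4, 13.9, 14.8 and 4.81 CPM in transgene cDC1 and at 253, 515, 496 and 355 CPM in deletion cDC2. Control cDC1 held 4.02 and 5.42 CPM and control cDC2 179 and 263 CPM. The groups were far apart in both pairs, with a log2 difference of 5.0 ± 0.34 (SE; 32.0-fold, adjusted p = 2.2e-11) against 5.56 and no change called (adjusted p = 0.61). Dtx1, a target of Notch, was at 4.53, 4.83, 1.55 and 0.464 CPM against 522, 606, 532 and 645 CPM (209-fold, adjusted p = 5e-12). Klf4, a zinc-finger factor needed by part of the cDC2, differed by 2.21 in the pair and 2.91 in the controls, and Gpr183, the oxysterol receptor that guides cDC2 within the spleen, by 4.23 and 4.36.

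A few cDC2 genes hardly set the pair apart, or did so the other way. Clec7a, which encodes the beta-glucan receptor Dectin-1, was at 206, 212, 107 and 61.4 CPM in transgene cDC1 and at 205, 324, 248 and 191 CPM in deletion cDC2, with overlap, while control cDC1 held 2.53 and 2.56 CPM and control cDC2 299 and 341 CPM. Its log2 difference was 0.72 ± 0.30 (SE; adjusted p = 0.039) against 6.97 in the controls, a change of -6.25 (adjusted p = 4e-07). The pair's call did not hold with DESeq2 (adjusted p = 0.055), in a fit of the 8 libraries alone (0.072) or with the line difference subtracted (0.95), the range over the alternatives being 0.012 to 0.95. Cd300a, an inhibitory phospholipid receptor, kept a log2 difference of 0.56 ± 0.11 (SE; adjusted p = 0.00015) of the controls' 2.80. With the line difference subtracted it was 0.28 and did not pass (adjusted p = 0.16, range 2.8e-06 to 0.16). Clec12a, an inhibitory lectin that is line-marked, was higher in cDC1 in both comparisons. Ccr2, which guides cells towards inflamed tissue, was at 145, 176, 195 and 84.1 CPM in transgene cDC1 and at 41.9, 26.9, 58.0 and 42.4 CPM in deletion cDC2 (log2 difference -1.82, adjusted p = 9.5e-05). The control cDC1 libraries disagreed on it, at 195 and 29.5 CPM.

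The receptor families of cDC2 showed the same narrowing. Among 10 genes of the SIRP and Cd300 receptors, 9 were higher in deletion cDC2, 9 had been higher in control cDC2, and 8 had changed towards cDC1, with a median log2 difference of 3.01 in the pair and 6.30 in the controls. With the transgene, 8 of them were higher than in control cDC1. Sirpb1a was at 6.62, 6.91, 3.49 and 2.72 CPM in transgene cDC1 and at 155, 157, 166 and 183 CPM in deletion cDC2, against 0.201 and 0.148 CPM in control cDC1 (pair 5.08, change -5.07, adjusted p = 3.5e-06). Its sequence is close to that of its neighbour Sirpb1b, so the split of reads between those genes is uncertain. Among 18 C-type lectins, 12 were higher in deletion cDC2 and 6 in transgene cDC1, and 9 changed towards cDC1 and 1 towards cDC2, with medians of 2.0 and 4.89. Clec10a and Mgl2, galactose-binding lectins of cDC2, kept log2 differences of 8.16 and 6.90 against 8.44 and 7.28, and Cd207 (Langerin) kept -9.70 against -11.07 on the cDC1 side.

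**Figure D3:**
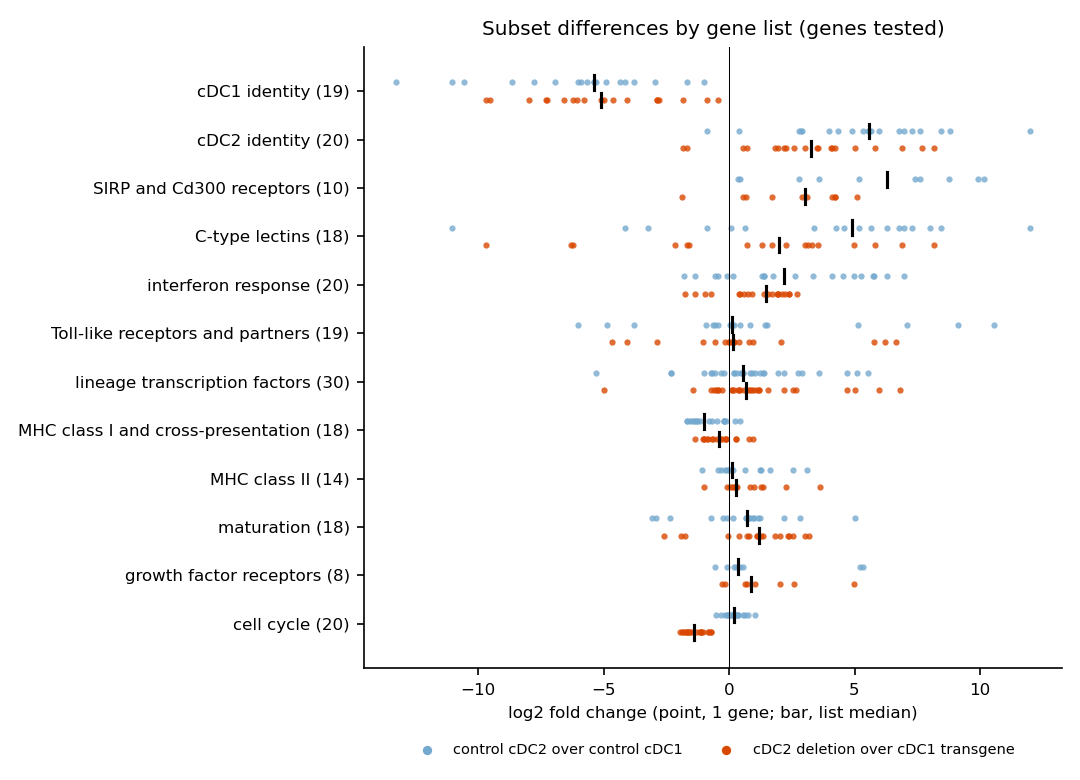
Log2 fold change of cDC2 over cDC1 for each tested gene of 12 lists (numbers of genes in brackets), in the matched controls (blue) and in the pair (orange), with black bars at list medians. The cDC2 identity median moves from 5.57 to 3.26 and that of the SIRP and Cd300 receptors from 6.30 to 3.01, while the cDC1 identity median stays near -5 and the cell cycle median goes from 0.19 to -1.39.

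Interferon response genes were part of the narrowing. Their mean log2 CPM in transgene cDC1 replicates 1 to 4 was 4.28, 4.23, 3.25 and 3.39, again higher in replicates 1 and 2. Shares of all genes tested were 32.0% higher in deletion cDC2, 29.4% higher in transgene cDC1 and 5.76% changing towards cDC1. Of 20 tested, 13 were higher in deletion cDC2 and 4 in transgene cDC1, 10 changed towards cDC1 and none towards cDC2, and the medians were 1.48 in the pair and 2.19 in the controls. With the transgene, 11 of them were higher than in control cDC1 and none lower, and with the deletion 1 was higher than in control cDC2. Ddx58, the sensor RIG-I, was at 27.3, 18.9, 14.5 and 9.07 CPM in transgene cDC1 and at 87.1, 88.8, 87.3 and 98.9 CPM in deletion cDC2, with 0.522 and 0.640 CPM in control cDC1. Its log2 difference fell from 6.99 to 2.38 (change -4.61 ± 0.54, SE; adjusted p = 4.5e-06), with the transgene libraries between both control levels. Rtp4 and Oasl2 changed by -3.92 and -2.30. Ifih1, the sensor MDA5 and line-marked, was higher in transgene cDC1 by 0.95 on the log2 scale, and Mx1 and Ifi44 were higher in cDC1 in both comparisons.

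Id2 (chr12:25093799-25096092), the inhibitor of E proteins named in the study's title, kept its direction at a reduced size. It was at 829, 879, 858 and 800 CPM in transgene cDC1, a mean of 842 ± 34.3 CPM (SD, n = 4), and at 494, 625, 526 and 562 CPM in deletion cDC2, a mean of 552 ± 56.1 CPM (SD, n = 4). Control cDC1 held 1220 and 1314 CPM and control cDC2 188 and 315 CPM, so both groups of the pair lay between the control levels, cDC1 above cDC2 without overlap. The log2 difference was -0.61 ± 0.13 (SE; 1.52-fold, adjusted p = 0.00023) in the pair and -2.33 in the controls, a change of 1.72 ± 0.22 (SE; adjusted p = 1.2e-05). With the line difference of the Cre-negative libraries subtracted it was -0.42 and did not pass (adjusted p = 0.061, range over the alternatives 1.1e-05 to 0.061). Of the 6 Id and E protein genes, 2 were higher in deletion cDC2 and 1 in transgene cDC1, against 32.0% and 29.4% of all genes tested. Tcf4, which encodes an E protein, differed by 1.53 in the pair and 1.96 in the controls.

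Among 30 lineage transcription factors, 17 were higher in deletion cDC2 and 7 in transgene cDC1, against 32.0% and 29.4% of all genes tested. A change was called for 6 of the 30, against 10.2% of all genes, and 24 showed none. Spib, an Ets factor of dendritic and B cells, differed by 5.99 in the pair and 5.08 in the controls, Tbx21 by 4.68 and 4.71, and Relb, the NF-kappaB subunit of cDC2, by 2.54 and 2.19. Relb was at 145, 157, 76.9 and 103 CPM in transgene cDC1 and at 659, 753, 632 and 757 CPM in deletion cDC2. Zbtb46, the factor that marks conventional dendritic cells of both kinds, was at 124, 129, 145 and 131 CPM in transgene cDC1 and at 172, 173, 163 and 164 CPM in deletion cDC2. It was thus slightly higher in cDC2 (0.34, adjusted p = 0.0012), while control cDC1 at 175 and 221 CPM stood above control cDC2 at 162 and 154 CPM (-0.33, adjusted p = 0.028).

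Of 8 growth factor receptors, 6 were higher in deletion cDC2 and none in transgene cDC1, against 4 and 1 in the controls. The pair called 61.5% of all genes tested and the controls, with fewer libraries, 42.4%. The changes of these receptors went both ways, with 3 towards cDC2, 1 towards cDC1 and 4 not called. Flt3, the receptor of the cytokine that drives dendritic cell development, was at 349, 327, 351 and 369 CPM in transgene cDC1 and at 508, 602, 562 and 508 CPM in deletion cDC2. Control cDC1 held 551 and 561 CPM and control cDC2 374 and 376 CPM, so the order of the subsets was turned. The log2 difference was 0.64 ± 0.08 (SE; adjusted p = 4.9e-07) in the pair and -0.57 in the controls, and the change was 1.21 (adjusted p = 4.5e-06). Kit, the stem cell factor receptor, was at 289, 281, 264 and 169 CPM against 1063, 1136, 956 and 983 CPM (4.13-fold, adjusted p = 1.4e-12) and went from 0.56 in the controls to 2.04 in the pair. Itgax, whose sequences drive the Cre, was 1.96-fold higher in deletion cDC2 and showed no called change (adjusted p = 0.78).

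The 124 genes called in opposite directions comprised 70 that were higher in control cDC1 and in deletion cDC2, and 54 that were higher in control cDC2 and in transgene cDC1. All 124 passed the test of the change, which picking them by opposite calls in the same fit nearly ensures. Of the 124, 4 were line-marked. With all Cre-negative libraries as controls the number was 223, and without control cDC2 replicate 1 it was 80. In the first direction, Lsr (chr7:30957770-30973469), a protein of epithelial cell corners, was at 60.9, 57.2, 44.3 and 53.8 CPM in transgene cDC1 and at 70.7, 94.4, 87.9 and 81.0 CPM in deletion cDC2. Control cDC1 held 197 and 238 CPM and control cDC2 19.9 and 21.6 CPM. The gene was lower by 2.01 with the transgene and higher by 2.01 with the deletion (log2), so a difference of -3.39 in the controls became 0.63 ± 0.11 in the pair (SE; adjusted p = 4.5e-05, change 4.02, adjusted p = 2e-11).

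Spint2 (chr7:29256330-29282059), an inhibitor of cell surface serine proteases, was at 79.9, 88.3, 63.8 and 73.4 CPM in transgene cDC1 and at 201, 259, 241 and 232 CPM in deletion cDC2, against 186 and 195 CPM in control cDC1 and 120 and 126 CPM in control cDC2. Every deletion library lay above every other library of these groups, and the log2 difference was 1.61 ± 0.12 (SE; adjusted p = 1.1e-10) against -0.64. Anxa6, a membrane-binding annexin, was at 441, 440, 462 and 386 CPM against 931, 955, 976 and 943 CPM (1.14, adjusted p = 7.7e-13, controls -0.64). Actn1, an actin crosslinker, was at 13.9, 11.4, 9.65 and 11.3 CPM against 55.1, 80.3, 65.3 and 62.7 CPM (2.5, adjusted p = 9.9e-12, controls -0.93), and most of that gap came from the transgene side, where its level was lower by 2.60 (log2) than in control cDC1. Fcrla, an Fc receptor-like protein of B cells and pDC, was at 3.38, 2.75, 3.84 and 2.90 CPM against 17.2, 13.4, 25.7 and 17.8 CPM, and control cDC1 held 37.1 and 39.2 CPM. Its log2 difference went from -4.74 to 2.53 (change 7.27, adjusted p = 1.8e-09). Gpr157, Efnb1, Prr13, Plcb4, Cd200 and the tight junction gene Cldn1 belonged to the same direction.

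In the second direction, Aurka, a mitotic kinase, was at 35.0, 30.1, 39.4 and 36.2 CPM in transgene cDC1 and at 16.9, 13.1, 19.1 and 14.9 CPM in deletion cDC2. Control cDC1 held 17.3 and 19.9 CPM and control cDC2 30.1 and 27.0 CPM, and the log2 difference went from 0.62 to -1.14 ± 0.13 (SE; adjusted p = 6.7e-08). Tgfbi, a secreted matrix protein induced by TGF-beta, was at 798, 722, 593 and 691 CPM against 319, 431, 293 and 286 CPM (-1.08, adjusted p = 1.1e-07, controls 0.50). Clec1b, the lectin CLEC-2 and line-marked, was at 18.3, 12.7, 12.7 and 8.64 CPM against 1.05, 1.19, 1.35 and 1.51 CPM (-3.35, adjusted p = 2e-10, controls 2.65). Top2a, Kif11, Ckap2l, Nek2 and Ncaph, all genes of dividing cells, were also in this direction.

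**Figure D4:**
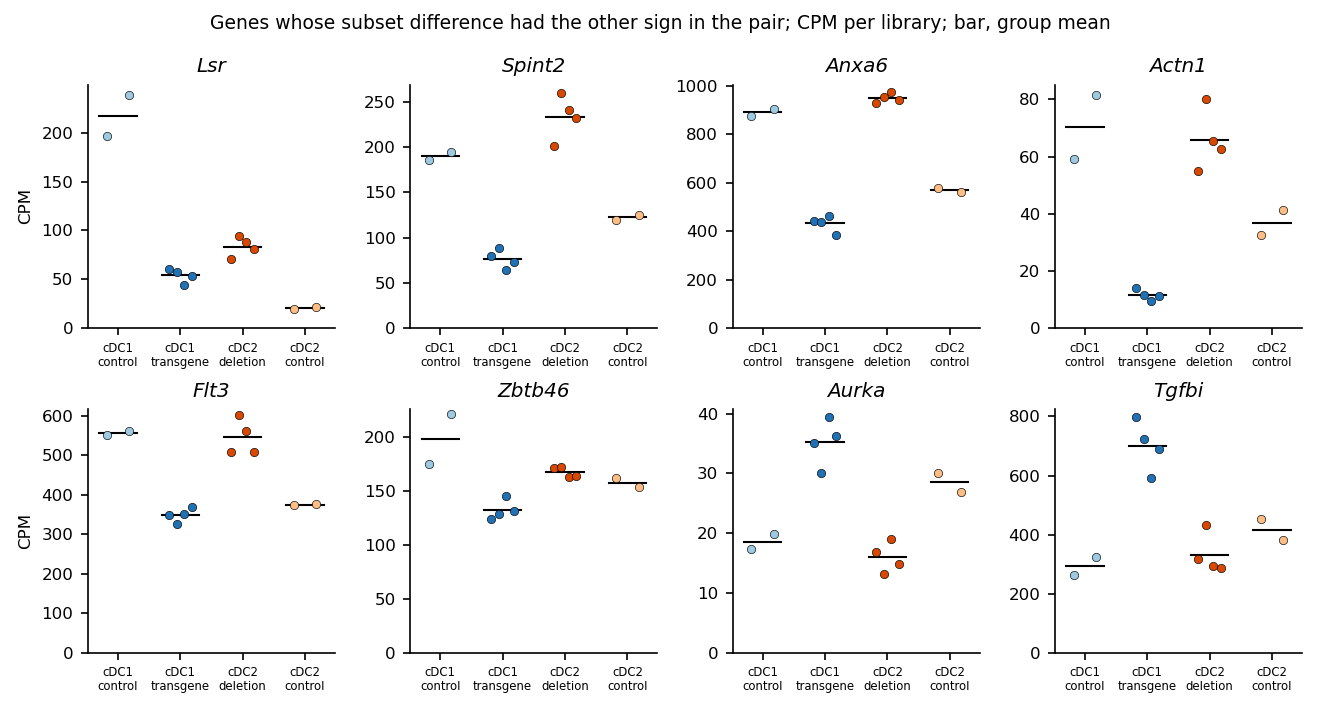
CPM (linear axes from 0) of 8 genes whose subset difference had the other sign in the pair than in the matched controls, in control cDC1, transgene cDC1, deletion cDC2 and control cDC2, with bars at group means. Lsr, Spint2, Anxa6, Actn1, Flt3 and Zbtb46 are higher in deletion cDC2 than in transgene cDC1 while control cDC1 is above control cDC2, and Aurka and Tgfbi show the reverse.

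Promoter sequences are shown for Lsr, a gene of opposite direction with several E-boxes in its window, for Cldn1 as a junction gene of the same direction without one, and for Id2. Each is the 250 bases before the transcription start on the minus strand, 5′ to 3′, from RefSeq on GRCm38.p6: Lsr at chr7:30973470-30973719, Cldn1 at chr16:26371840-26372089 and Id2 at chr12:25096093-25096342. Capitals mark CACCTG or its reverse complement CAGGTG, the E-box known to be bound by ZEB proteins and by E proteins.
Lsr: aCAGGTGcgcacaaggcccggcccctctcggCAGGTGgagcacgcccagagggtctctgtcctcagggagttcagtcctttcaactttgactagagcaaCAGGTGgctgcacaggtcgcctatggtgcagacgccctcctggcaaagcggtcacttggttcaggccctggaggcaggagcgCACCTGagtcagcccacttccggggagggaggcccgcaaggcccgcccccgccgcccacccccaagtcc
Cldn1: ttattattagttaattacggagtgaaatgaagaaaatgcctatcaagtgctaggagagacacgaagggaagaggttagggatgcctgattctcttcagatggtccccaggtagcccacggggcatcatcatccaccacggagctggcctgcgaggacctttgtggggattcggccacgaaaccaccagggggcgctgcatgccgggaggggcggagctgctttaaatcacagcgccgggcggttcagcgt
Id2: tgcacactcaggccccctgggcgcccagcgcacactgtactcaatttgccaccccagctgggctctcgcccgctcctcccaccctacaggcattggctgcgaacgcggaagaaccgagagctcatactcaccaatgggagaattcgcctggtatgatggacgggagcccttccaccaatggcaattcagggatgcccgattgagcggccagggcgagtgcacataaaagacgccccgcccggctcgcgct
The boxes of Lsr begin 69, 151, 219 and 249 bases before the start. Both strands of a window from 250 bases before to 50 after the start were searched for the 10057 tested genes with a RefSeq promoter, and 2097 (20.9%) held the box. Of the genes of opposite direction that were higher in deletion cDC2, 26 of 55 with a promoter held it (47.3%), and of those higher in transgene cDC1 4 of 44 (9.09%). For genes changing towards cDC2 the share was 32.7% (146 of 446), and for genes changing towards cDC1 17.6% (103 of 585). Among genes kept it was 21.5%, among cDC1 identity genes 12.5%, among cDC2 identity genes 7.14% and among cell cycle genes 5.56%. Of genes with 1 annotated start, 17.4% of all tested and 43.2% of the opposite genes higher in deletion cDC2 held it. These matches describe the letters of the windows and not binding.

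Genes on which the control subsets hardly differed were set apart in the pair. The clearest list was that of cell cycle genes: all 20 were higher in transgene cDC1, with a median log2 difference of -1.39, while in the controls 3 were higher in cDC2 and 1 in cDC1, with a median of 0.19. Of the 20, 19 had a called change, against 10.2% of all genes tested. With the transgene, 11 were higher than in control cDC1 and none lower, and with the deletion 17 were lower than in control cDC2 and none higher. Their summed level was 1446, 1466, 1947 and 1735 CPM in transgene cDC1 and 701, 645, 833 and 754 CPM in deletion cDC2. Control cDC1 summed to 1187 and 1060 CPM and control cDC2 to 1263 and 1308 CPM, so each group of the pair lay outside its own controls, in opposite directions.

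Ccnb1, the mitotic cyclin, was at 57.5, 62.5, 70.6 and 57.1 CPM in transgene cDC1 and at 18, 11.6, 19 and 18.2 CPM in deletion cDC2 (-1.89 ± 0.19, log2, SE; adjusted p = 1.1e-08), while the controls held 33.1 and 32.3 CPM in cDC1 and 26.7 and 40.0 CPM in cDC2. Pcna, the replication clamp, was at 142, 160, 194 and 173 CPM against 91.3, 84.2, 95.5 and 97.1 CPM (-0.86, adjusted p = 4e-08). No library of the pair overlapped for either gene. Outside the list, Ube2c, Stmn1, Tuba1b, Cdca8, Chtf18 and Myof were the strongest genes called in the pair and not in the controls on the cDC1 side, and the first 5 of these are known from dividing cells. Ube2c, a ubiquitin-conjugating enzyme of mitosis, was at 61.6, 61.1, 65.4 and 59.9 CPM against 15.3, 11.5, 17.5 and 14.7 CPM (4.19-fold, adjusted p = 2e-10), with 27.4 and 34.0 CPM in control cDC1 and 29.0 and 32.3 CPM in control cDC2.

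**Figure D5:**
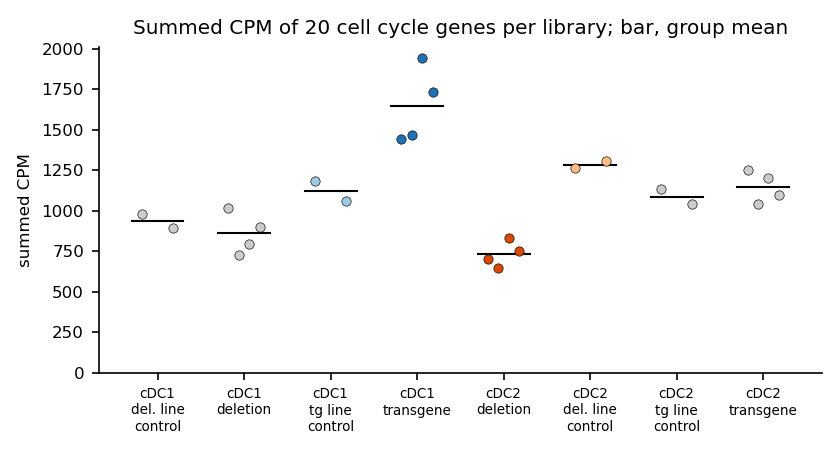
Summed CPM of 20 cell cycle genes in each of the 24 libraries by group, with bars at group means and the pair and its matched controls in colour. The 4 transgene cDC1 libraries lie at 1446 to 1947 CPM, above all others, and deletion cDC2 at 645 to 833 CPM, below both of their controls.

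On the cDC2 side, the strongest genes called only in the pair were Cyb561a3, H2-Ob, Cdon, Rab30, Prnp and the line-marked Klrc1. H2-Ob (chr17:34238905-34245908), a chain of the MHC class II peptide-loading modulator DO, was at 187, 203, 189 and 193 CPM in transgene cDC1 and at 462, 421, 486 and 481 CPM in deletion cDC2 (2.40-fold, adjusted p = 8.5e-13). Both controls lay between, at 327 and 326 CPM in cDC1 and 316 and 358 CPM in cDC2. Cdon, a cell surface receptor of the hedgehog pathway, was at 4.39, 2.5, 4.50 and 2.64 CPM against 24.4, 32.5, 24.4 and 19.1 CPM, with 13.7 and 14.6 CPM in control cDC1 and 16.1 and 16.3 CPM in control cDC2. Of 14 MHC class II genes, 9 were higher in deletion cDC2 and 1 in transgene cDC1 (6 and 3 in the controls), with a median of 0.29. Their change was called towards cDC2 for 3 and towards cDC1 for 2. Of all genes tested, 61.5% were called in the pair and 42.4% in the controls, which have fewer libraries.

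Genes of the MHC class I pathway, which cDC1 use for cross-presentation, differed less in the pair. Shares of all genes tested were 29.4% higher in transgene cDC1, 32.0% higher in deletion cDC2 and 4.43% changing towards cDC2. Of 18 tested, 11 were higher in transgene cDC1 and 3 in deletion cDC2, 6 changed towards cDC2 and none towards cDC1, and the median went from -0.98 in the controls to -0.42. Tap1, a subunit of the peptide transporter, and Psmb9, a subunit of the immunoproteasome, went from -1.47 to -0.35 and from -1.68 to -0.68 (changes of 1.12 and 1.00, adjusted p = 3.2e-05 and 5.3e-05). B2m, the light chain of MHC class I, was at 2872, 2981, 2834 and 2834 CPM in transgene cDC1 and at 5951, 5866, 5128 and 5232 CPM in deletion cDC2, a gap of 0.94 against 0.42 in the controls with no called change.

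Maturation genes were mostly higher in deletion cDC2. Of 18, 13 were higher there and 2 in transgene cDC1, against 8 and 4 in the controls, with medians of 1.19 and 0.73 and 3 called changes, all towards cDC2. Over all genes tested, the pair called 61.5% and the controls, with 2 libraries a group against 4, called 42.4%. Ccr7, the receptor for migration to lymph nodes, was at 305, 320, 133 and 187 CPM in transgene cDC1 and at 1112, 2956, 2100 and 1571 CPM in deletion cDC2. Control cDC1 held 775 and 538 CPM and control cDC2 1407 and 1538 CPM. The pair did not overlap (3.03 ± 0.40, log2, SE; adjusted p = 6.4e-07), but the change did not pass (adjusted p = 0.067). Cd86, a ligand of CD28, was at 371, 397, 432 and 438 CPM against 117, 147, 99.5 and 116 CPM and stayed a cDC1-high gene (-1.77, controls -2.36).

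Among Toll-like receptors and their partners, 7 of 19 were higher in deletion cDC2 and 5 in transgene cDC1, shares near the 32.0% and 29.4% of all genes. The endosomal single-stranded RNA receptor Tlr7 was at 5.21, 4.28, 1.09 and 0.522 CPM in transgene cDC1 and at 150, 149, 142 and 155 CPM in deletion cDC2 (5.78, controls 9.13), and Tlr11, the profilin receptor of cDC1, went from -3.78 to -2.87. Neither change passed without control cDC2 replicate 2 (adjusted p up to 0.14 for Tlr7 over the 5 libraries whose omission ended its call, and 0.071 for Tlr11). Chemokine receptors were called in 13 of 14 cases, against 61.5% of all genes, 9 higher in deletion cDC2 and 4 in transgene cDC1. Their change was called for 3 of the 14. Cxcr3, which senses interferon-induced chemokines, was at 32.2, 34.6, 33.3 and 34.4 CPM in transgene cDC1 and at 24.8, 18.8, 19.6 and 24.6 CPM in deletion cDC2. Control cDC1 held 116 and 122 CPM and control cDC2 3.02 and 4.61 CPM, so nearly all of a difference of -4.96 was gone at -0.62 (adjusted p = 0.001, change 4.34 ± 0.28, SE, adjusted p = 5.5e-10). With the line difference subtracted the pair's value was -0.36 and did not pass (adjusted p = 0.19, range 6.8e-05 to 0.19).

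The 12 genes named for the smallest p of the change included some with opposite signs, such as Lsr, Anxa6, Plcb4 and Clec1b, and others whose difference became smaller. Ttc39a was at 175 and 212 CPM in control cDC1 and 0.784 and 0.615 CPM in control cDC2, but at 8.74, 10.0, 12.2 and 15.3 CPM in transgene cDC1 and 8.72, 24.7, 11.6 and 15.8 CPM in deletion cDC2. The 2 groups of the pair overlapped and did not differ past the threshold (0.39, adjusted p = 0.13), and the change was 8.49 ± 0.49 (log2, SE; adjusted p = 1.2e-10). Cst3, the protease inhibitor cystatin C, was at 9741, 11212, 9990 and 11814 CPM in transgene cDC1 and at 2135, 2058, 2013 and 1985 CPM in deletion cDC2, with 18154 and 20555 CPM in control cDC1 and 810 and 937 CPM in control cDC2. Both groups of the pair had moved inwards without meeting (-2.38, controls -4.47). Tgm2, a transglutaminase, was at 139, 114, 110 and 86.4 CPM against 442, 522, 464 and 448 CPM, with 3.62 and 8.91 CPM in control cDC1, and its log2 difference went from 7.06 to 2.06 (change -5.0, adjusted p = 7.3e-09).

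The largest differences of the pair lay in genes with few or no counts in 1 subset. Cyp4f37, a cytochrome P450, was at 0.180, 0.466, 0.194 and 0.695 CPM in transgene cDC1 and at 218, 210, 240 and 217 CPM in deletion cDC2 (546-fold, adjusted p = 1.1e-16). Dscam, an adhesion molecule, had 3 counts in all transgene libraries together and 88.4, 92.4, 83.4 and 76.2 CPM in deletion cDC2, a ratio of 3168 (95% interval for counting error, 1084 to 15363). Tmem132c had no count in transgene cDC1 and was at least 136-fold higher in deletion cDC2, taking 3 counts per library as the floor. On the other side, Fzd1, a Wnt receptor, was at 212, 211, 240 and 275 CPM against 0.116, 0.356, 0.116 and 0.426 CPM (909-fold, adjusted p = 2.3e-15). Cyp8b1 and Alpl had no count in deletion cDC2 and were at least 85.5-fold and 71.9-fold higher in transgene cDC1. No change was called for Cyp4f37 or Fzd1, and for the other 4, each with a group that holds no count, the change could not be tested. Cdh17, a cadherin, was the one of the 8 highest genes on the cDC2 side with a called change: it was at 97.7, 175, 115 and 124 CPM in deletion cDC2 against 13.5 and 21.3 CPM in control cDC2, and its log2 difference went from 2.90 to 8.28 (change 5.37, adjusted p = 0.0001).

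Genes of epithelial cells that ZEB factors are known to repress were mostly scarce in all libraries. Of 11 tested, 6 were higher in deletion cDC2 and 1 in transgene cDC1, and 3 changed towards cDC2. All genes tested gave 32.0%, 29.4% and 4.43% for these calls. Epcam, an adhesion molecule, was at 4.06, 3.43, 2.68 and 2.03 CPM in transgene cDC1 and at 50.2, 56.0, 38.1 and 48.6 CPM in deletion cDC2, with 13.3 and 11.3 CPM in control cDC2. St14, the protease matriptase, was at 2.62, 3.98, 4.50 and 3.25 CPM against 95.5, 116, 102 and 96.1 CPM, a difference of 4.84 against 3.69 in the controls (change adjusted p = 0.015, and up to 0.083 without control cDC1 replicate 1 or control cDC2 replicate 2). The group showed no single pattern in the controls, where 3 were higher in cDC2 and 1 in cDC1.

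Markers of other cell types differed in the pair in part. For scale, 32.0% of all genes tested were higher in deletion cDC2 and 29.4% in transgene cDC1. Of 9 B cell markers, 6 were higher in deletion cDC2 and none in transgene cDC1, with summed levels of 243 to 301 CPM in deletion cDC2, 11.6 to 25 CPM in transgene cDC1, 70.7 to 89.7 CPM in control cDC2 and 33.2 to 51.4 CPM in control cDC1. Most of that sum was Ms4a1 (CD20), at 163, 175, 193 and 212 CPM in deletion cDC2, whereas Cd79a was at 0.594 to 7.62 CPM there. Of 11 T cell markers, 3 were higher in deletion cDC2 and none in transgene cDC1 (summed 103 to 158 against 8.11 to 13.8 CPM), with Tcf7 at 70.7 to 122 CPM making up most of the sum and Cd3e at 0 to 1.86 CPM. Of 18 monocyte markers, 13 were higher in deletion cDC2 and 2 in transgene cDC1, and Ly6c2 was at 0.697 to 4.51 CPM in the 8 libraries. Of 15 red pulp macrophage markers, 9 were higher in deletion cDC2 and 1 in transgene cDC1, with Cd5l at 0.349 to 6.34 CPM and Siglec1 at 0 to 0.774 CPM. Of 18 pDC markers, 10 were higher in deletion cDC2 and 4 in transgene cDC1, with Siglech at 0 to 2.56 CPM. Calls in the same order were 3 and 1 of 10 NK cell markers and 3 and 2 of 9 neutrophil markers (summed 10.8 to 25.7 against 2.88 to 10.0 CPM). None of 5 erythroid markers was called. The counts of T cell, NK cell and neutrophil markers were near or below the shares of all genes. The neutrophil sum was 78.5 to 97.7 CPM in control cDC2 and 4.87 to 13.3 CPM in control cDC1. Control cDC1 replicate 1 had a higher mean log2 CPM than replicate 2 for T cell (1.44 and -1.63), NK cell (0.57 and -2.40) and neutrophil markers (-0.69 and -3.07). The part of such cells in the differences of the pair was not tested.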

How the data were processed

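RNA of dendritic cells sorted from mouse spleen was measured in 24 libraries, of which 8 form the comparison and 4 its matched controls. Per the labels' protocols, 4 ng of total RNA was amplified with SMART-Seq v4, library amplification took 15 PCR cycles, and 75-base single reads were sequenced on 2 flow cells. The authors used, per the submitters' processing notes, FastQC 0.11.4, Trimmomatic 0.35, TopHat2 2.1.0, SAMtools 0.1.18 and the mm10 build; no source used here names the counting program, its annotation or its strand setting, so reads of overlapping or antisense genes cannot be told apart. The deposited values are raw read counts for 24421 gene symbols per library. Special lines of the counting output, 5 per library, were dropped before scaling: in the 8 libraries 10.4 to 15.7% of reads had no feature and 0.989 to 1.07% were ambiguous.

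Genes were filtered with filterByExpr (minimum count 10, minimum total 15), leaving 13166, scaled by TMM (factors 0.956 to 1.04 in the 8 libraries) and fitted with edgeR 4.0.16 (R 4.3.3, limma 3.58.1) as 8 group means over all 24 libraries. Contrasts were tested two-sided with edgeR's quasi-likelihood test and Benjamini-Hochberg adjustment at 0.05 over all tested genes. SE were worked back from that test, as the absolute log2 fold change divided by the square root of its F statistic. Intervals and floors (3 counts per library) cover counting error only. Alternatives were DESeq2 1.42.0, its size factors, other filters, a fit of the 8 libraries, other controls, subtraction of the line difference, a replicate block and leaving out each library; the comparison with the remaining Cre-negative libraries was added after the data were seen.

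The comparison, its gene lists and tests were chosen with earlier results of these data known. Genes were named as the strongest of each list, the largest fold changes, the smallest p of the change, of opposite calls and of calls in the pair alone, the largest line differences, and any identity gene. Flt3, Zbtb46, Itgax, Cldn1, Cd200, Top2a, Kif11, Ccr7, Tap1, Psmb9, B2m, Pcna, Ccnb1, Rtp4, Ifih1, Mx1, Ifi44 and the markers of other cell types were named outside that rule after their values were seen. Gene positions and promoters come from RefSeq on GRCm38.p6, whose coordinates are those of mm10; 13133 of the tested genes had a position. Zeb2 chose the groups and was not tested. Some genes of the lists are not reported here by name.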

Additional observations from a re-analysis of the deposited data

Results flagged for a closer look

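In 360 groups of 4 libraries (the 2 groups of the comparison for each named gene), 11 held a library set apart from its group. Groups with every library below 1 CPM were counted in the 360 but not checked. Chance alone gives about 1 in 20 of the groups checked, whose number was not kept. In transgene cDC1 these were Bad at 21.4 CPM and Ckap2l at 30.2 CPM in replicate 3, Calr at 1372 CPM and Rab7b at 428 CPM in replicate 4, and Ccr6 at 1.10 CPM in replicate 2. In deletion cDC2 they were Csf2rb2 at 114 CPM, Gpr157 at 116 CPM and H2-Eb2 at 176 CPM in replicate 2, Ddx58 at 98.9 CPM and Rab11a at 145 CPM in replicate 4, and Ppt1 at 199 CPM in replicate 1.

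The subset difference itself differed between the pair and the matched controls, by the contrast of both in edgeR's quasi-likelihood test, for 583 genes towards cDC2 and 758 towards cDC1. Among the genes with the smallest p, the log2 difference moved towards cDC2 by 8.49 for Ttc39a, 4.34 for Cxcr3, 4.02 for Lsr, 3.03 for Plcb4, 2.09 for Cst3 and 1.78 for Anxa6. It moved towards cDC1 by -6.01 for Clec1b, -5.00 for Tgm2, -2.98 for Lyz1, -2.76 for Csf1r and -2.24 for Cd300a. Clec1b and Lyz1 are line-marked.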

How the results depend on the processing

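With the line difference of the Cre-negative libraries subtracted, 2821 genes were higher in deletion cDC2 and 2983 in transgene cDC1, against 4214 and 3877 without it. The pair's log2 difference turned for Camp (1.11), Clec7a (-0.062), Fastkd1 (0.075), Gt(ROSA)26Sor (-1.02), Hebp1 (1.22) and Jchain (0.96). The subtraction itself accounts for the line-marked ones, and for the others the cause was not tested. Without turning, 15 more named genes lost the pair's call. Among them were Batf3, Cd300a, Cxcr3, Id2 and the line-marked Lyz1 (log2 difference 0.02) and, with groups that hold no count, Cyp8b1 and Dscam. Line-marked genes numbered 145 by DESeq2 and 2253 at an unadjusted p under 0.05. Asking for at least 2-fold left 2172 and 1378 genes in the pair and 1695 and 1114 in the controls. With all Cre-negative libraries as controls, 223 genes had opposite signs and 1326 differed in the controls only. Leaving out 1 library at a time gave 3909 to 4190 genes higher in deletion cDC2 and 3640 to 3974 higher in transgene cDC1, 2233 to 2873 and 2231 to 2739 in the controls, 369 to 582 and 485 to 759 called changes towards cDC2 and cDC1, 26 to 57 line-marked genes, 3881 to 4660 kept, 80 to 122 opposite, 482 to 884 in the controls only and 2854 to 4173 in the pair only. The counts of 369, 80 and 482 came without control cDC2 replicate 1, and the 485 without control cDC1 replicate 2. Line-marked genes fell to 26 without Cre-negative cDC1 replicate 2 of the deletion line, to 28 without control cDC2 replicate 2, and to 30 and 31 without replicates 1 and 2 of Cre-negative cDC2 of the transgene line, since fewer libraries then entered a group. The list counts ran over 19 to 19 (cDC1 identity), 17 to 18 (cDC2 identity), 19 to 20 (cell cycle) and 13 to 15 (interferon response). The 179 named genes followed in the pair include some that were not called there, such as Ttc39a. Of those called, 4 (Camp, Clec7a, Cxcr2 and Prf1) lost their call without some library. Of 91 named changes, all called, 22 did (Bmf, Btla, Ccr2, Cd209a, Cd86, Cox6a2, Csf2rb2, Cx3cr1, Cxcl9, Fcer2a, Hmox1, Itgae, Itgam, Ms4a4c, Prf1, Psmb8, S100a4, St14, Tcf7, Tlr11, Tlr7 and Wdfy4). Between the 2 groups of the pair, deviations of same-numbered libraries from their group means had correlations of -0.046 to 2.79e-05. These groups come from different lines, so the values cannot show whether same-numbered cDC1 and cDC2 of 1 line are paired. That was not tested. With the replicate block, 4191 and 3869 genes were called in the pair, 2832 and 2712 in the controls, 598 and 755 changes, 59 line-marked, 4673 kept, 123 opposite, 748 in the controls only and 3264 in the pair only. All 179 named genes stayed called or not called in the pair as before. Of the named changes, that of Prf1 lost its call at a log2 value of 6.34, against 6.40 without the block (adjusted p = 0.058, range over the alternatives 0.015 to 0.64). DESeq2 size factors put the median difference of all genes in the pair at 0.08 in place of 0.06. The control contrasts rest on 2 libraries a group, which limits them, and low counts limit genes with groups at 0.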
